A study of Homo sapiens with 6 samples.

Results

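The HOX genes are the 39 homeobox transcription factor genes that lie in 4 human clusters, and their RNA was read here in 6 HEK293T libraries (human embryonic kidney cells with the large T antigen of SV40). All protein-coding rows whose symbol is HOX followed by a cluster letter and a paralog number were taken, 39 of 19263 protein-coding rows and of 57820 rows in all. All 6 libraries came from cells with RfxCas13d, an RNA-guided nuclease of the CRISPR family that cuts transcripts complementary to its guide, the crRNA. The cells of all 6 were grown at 37 °C with 10% CO2 and 10% serum. The groups are 3 libraries with a non-targeting crRNA and 3 with a crRNA against mCherry, a fluorescent reporter with no human counterpart. The sources used here do not give how the effector and the crRNA were delivered, for how long, or whether the cells carried an mCherry transgene. Nothing beyond the label of biological replicate says that the libraries came from separate cultures, so p-values measure the spread between these samples.

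HOX proteins bind DNA through a homeodomain, most often beside partners of the PBX and MEIS families, and give cells their position along the head-to-tail axis and the limbs. Within a cluster the genes stand in the order of the body regions they pattern, with low paralog numbers acting towards the head and high numbers towards the tail, and genes that share a number across clusters are the closest relatives. Polycomb complexes keep HOX genes silent and Trithorax or MLL complexes keep them active through cell division, and retinoic acid switches on the low-numbered genes in the embryo. In the developing kidney, HOX proteins of paralog number 11 are needed for the ureteric bud to form.

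The libraries held 21321850 to 25906275 counts. The HOX rows together took 0.114% ± 0.0056 of the counts in the non-targeting and 0.109% ± 0.0028 in the mCherry-targeting libraries (SD, n = 3). Of the 9 HEK293T marker genes listed, 7 were matched in the table, and all 7 reached 1 CPM (a count scaled to a common library total) in every library. Markers of blood, hepatocyte and epithelial lines were near 0, with PTPRC, HBB, SERPINA1, KRT5 and KRT14 without a count in any library, and of the fibroblast list DCN had none while COL1A1 gave 12.3 to 17.9 CPM. The share of counts from 7SK, an abundant nuclear RNA without a poly(A) tail, separated the libraries across the groups: with a non-targeting crRNA it was 0.516%, 1.15% and 1.37% (replicates 1 to 3), and with the mCherry crRNA 0.716%, 0.439% and 1.15%.

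HEK293T cells transcribed most of the HOX repertoire, from all 4 clusters. Of the 39 genes, 34 reached at least 1 CPM in all 6 libraries and 5 stayed under 1 CPM in all 6. Transcript levels are compared between genes as CPM per kb of exon, which divides each gene's CPM by the summed length of its exons. On this scale the 34 genes spanned 1.37 to 71.4 CPM per kb (means of 6 libraries), and 31 of the 39 were above the median protein-coding gene.

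**Figure D1:**
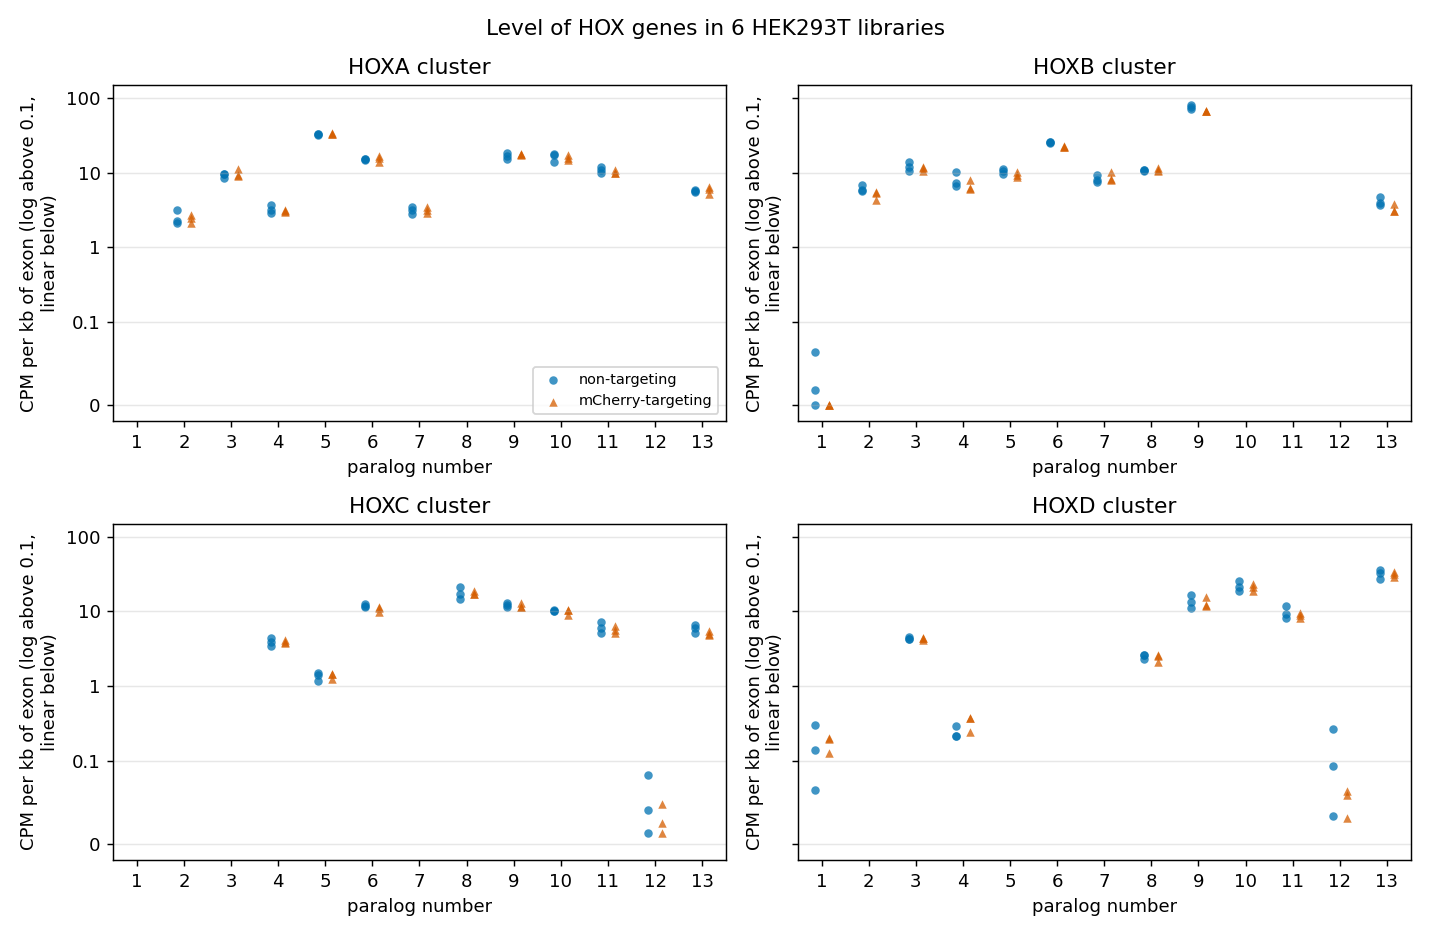
Level of HOX genes in CPM per kb of exon (log axis above 0.1, linear below) in the 3 non-targeting and 3 mCherry-targeting libraries, in 1 panel per cluster and ordered by paralog number, with 1 gene not shown. HOXB9 stands highest at 66.2 to 80.7 CPM per kb, and HOXB1, HOXC12, HOXD1, HOXD4 and HOXD12 stand lowest.

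HOXB9, a gene of the thoracic region that shapes the ribs, had the highest level of the family. It gave 75.9, 72 and 80.7 CPM per kb in the non-targeting libraries and 67.3, 66.2 and 66.3 in the mCherry-targeting libraries. All 6 values were above those of every other HOX gene, the mean of 71.4 was 2.17 times that of HOXA5, and it lay at percentile 98.3 of the 19263 protein-coding rows. HOXB9 (ENSG00000170689.8) lies on chromosome 17 from 48621159 to 48626356 on the minus strand of GRCh38, inside the span of HOXB7 on the same strand. Its exons overlap those of no other gene that has a row in these data.

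HOXA5, which is needed for lung and airway development, and HOXD13, which forms the digits, came next and could not be ordered. HOXA5 gave 33.0, 32.8 and 31.8 CPM per kb in the non-targeting and 32.7, 34.4 and 32.8 in the mCherry-targeting libraries. HOXD13 gave 26.8, 35.8 and 32.9 CPM per kb in the non-targeting and 28.7, 32.1 and 33.4 in the mCherry-targeting libraries. HOXA5 was above HOXD13 in 3 of the 6 libraries, and HOXD13 was above the next gene, HOXB6, in all 6. Of the 38 pairs of neighbours in the order of mean level, 8 kept their order in all 6 libraries and 4 had ranges that did not meet. Those 4 were HOXB9 over HOXA5, HOXD13 over HOXB6, HOXD8 over HOXC5 and HOXC5 over HOXD4, so most neighbours in the middle of the order did not differ beyond their spread.

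The HOXA cluster (chromosome 7, 27092993 to 27200106) had all 11 of its genes at 1 CPM or more in every library. It held 28.4% ± 1.23 of the summed HOX level (SD, n = 6, CPM per kb). HOXA5 led, followed by HOXA9, a partner of MEIS1 in leukaemia, at 15.4, 17.0 and 18.3 CPM per kb in the non-targeting and 17.6, 17.1 and 18.1 in the mCherry-targeting libraries. HOXA10, a gene of the uterus, was at 14.1, 17.2 and 18.1 CPM per kb against 14.8, 15.9 and 17.5. HOXA9 exceeded HOXA10 in 5 of 6 libraries. Further means were 15.2 CPM per kb for HOXA6, 10.5 for HOXA11, 9.52 for HOXA3, which acts in the thymus and parathyroid, and 5.74 for HOXA13, a limb and genital tract gene. HOXA4, HOXA7 and HOXA2 were lowest at 3.16, 3.16 and 2.48 CPM per kb.

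The HOXB cluster (chromosome 17, 48528526 to 48729178) held the largest of the 4 shares, 36.0% ± 1.41 (SD, n = 6). HOXB9 and HOXB6 led it. HOXB6 gave 25.2, 25.9 and 25.7 CPM per kb in the non-targeting and 21.9, 22.3 and 22.6 in the mCherry-targeting libraries. HOXB3, a hindbrain gene with a long transcript unit, gave 13.8, 11.9 and 10.7 against 11.7, 11.8 and 10.5 CPM per kb, with the 2 groups overlapping. The means of HOXB8, HOXB5, a gene of the enteric nervous system, and HOXB7 were 10.9, 9.95 and 8.47 CPM per kb. HOXB4, which expands blood stem cells when overexpressed, had 7.42, HOXB2 had 5.58 and HOXB13, a gene of the prostate that stands 98.4 kb from HOXB9, had 3.70 CPM per kb.

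The HOXC cluster (chromosome 12, 53938765 to 54056030) held 16% ± 0.484 and the HOXD cluster (chromosome 2, 176092891 to 176190907) 19.6% ± 0.747 of the summed level (SD, n = 6). In HOXC the leading gene was HOXC8, which sets the fate of brachial motor neurons, at 21.1, 16.9 and 14.8 CPM per kb in the non-targeting and 16.9, 18.6 and 17.4 in the mCherry-targeting libraries. HOXC9, a thoracic motor neuron gene, ranged over the 6 libraries from 11.4 to 12.8 CPM per kb and HOXC6 from 9.95 to 12.6. The other HOXC means were 10.1 for HOXC10, 5.90 for HOXC11, 5.48 for HOXC13, a gene of hair and nail, 3.91 for HOXC4 and 1.37 CPM per kb for HOXC5. In HOXD, HOXD13 was followed by HOXD10, a gene of lumbar motor neurons, at 25.9, 21.2 and 18.9 CPM per kb in the non-targeting and 23.3, 21.4 and 19.1 in the mCherry-targeting libraries. HOXD9 ranged from 11 to 16.7 CPM per kb, and HOXD11, a gene of the forearm and kidney, from 8.23 to 11.9. HOXD3 and HOXD8 had means of 4.34 and 2.46 CPM per kb.

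The order of the clusters by share, HOXB, HOXA, HOXD and HOXC, was the same in every library. The first place of HOXB rested on HOXB9, since without that gene the shares were 34.2% for HOXA, 23.6% for HOXD, 23.1% for HOXB and 19.2% for HOXC. These levels depend on how reads in shared exons were assigned. Overlaps were taken from the annotation, among genes that have a row in these data. Of the 39 genes, 15 share exon sequence with another gene on the same strand and 19 with a gene on the opposite strand, while 15 share it with neither. The overlap covered 59.9% of HOXC5 exons on the same strand and 62.5% of HOXA7 exons on the opposite strand, where HOXA-AS3 lies. Without the 15 genes that overlap on the same strand, the shares were 23.7% for HOXA, 43.8% for HOXB, 11.6% for HOXC and 20.9% for HOXD.

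The 5 genes under 1 CPM were HOXB1, HOXC12, HOXD1, HOXD4 and HOXD12, so none of them was in HOXA and 3 were in HOXD. HOXB1, the facial nerve gene of the hindbrain, had 1, 4 and 0 counts in the non-targeting libraries and none in the mCherry-targeting libraries. HOXC12 had 3, 7 and 1 counts against 1, 4 and 2, and HOXD12 had 1, 9 and 3 against 1, 2 and 2. HOXD1 had 6, 15 and 3 counts against 6, 10 and 9, and HOXD4, a gene of the neck vertebrae, had 7, 8 and 10 against 13, 9 and 13. A count of 0 allows up to 3 counts, or 0.118 to 0.136 CPM in these libraries, for counting error only, and no fold change is given for these 5 genes. HOXD4, the highest of the 5 at 0.285 CPM per kb, was 4.81-fold below HOXC5, the lowest of the genes above the line.

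Both genes of paralog number 12 were among the 5, although each lay between transcribed neighbours. HOXD12 begins 3.79 kb after HOXD13 ends and ends 3.02 kb before HOXD11 begins, and its mean of 0.0907 CPM per kb stood between 31.6 for HOXD13 and 9.33 for HOXD11. HOXC12, at 0.0370 CPM per kb, lay 8.29 kb from HOXC13 and 14.2 kb from HOXC11, which had 5.48 and 5.90 CPM per kb. The step from HOXD13 to HOXD12 and back to HOXD11 was seen in all 6 libraries.

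Promoter sequences of these 3 neighbours are shown because the low gene and its transcribed neighbours lie within a short stretch of 1 cluster. Each window runs from 250 bases before to 50 bases after a transcript start in RefSeq on GRCh38.p14 and is written 5′ to 3′ on the plus strand, with CG dinucleotides in capitals. The windows are chr2:176092471-176092770 for HOXD13, chr2:176099545-176099844 for HOXD12 and chr2:176107030-176107329 for HOXD11.
HOXD13: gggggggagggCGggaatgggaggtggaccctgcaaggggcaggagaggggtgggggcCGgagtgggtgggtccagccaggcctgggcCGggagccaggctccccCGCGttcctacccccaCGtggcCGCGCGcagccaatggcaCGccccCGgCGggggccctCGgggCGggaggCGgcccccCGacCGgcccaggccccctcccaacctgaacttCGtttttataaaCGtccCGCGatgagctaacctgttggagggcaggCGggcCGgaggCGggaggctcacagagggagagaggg
HOXD12: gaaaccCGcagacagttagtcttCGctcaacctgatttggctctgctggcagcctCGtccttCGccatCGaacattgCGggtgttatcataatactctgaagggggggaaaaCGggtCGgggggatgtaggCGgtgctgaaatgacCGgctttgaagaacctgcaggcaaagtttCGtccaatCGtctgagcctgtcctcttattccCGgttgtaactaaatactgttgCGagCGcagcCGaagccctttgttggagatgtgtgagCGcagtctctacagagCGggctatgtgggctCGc
HOXD11: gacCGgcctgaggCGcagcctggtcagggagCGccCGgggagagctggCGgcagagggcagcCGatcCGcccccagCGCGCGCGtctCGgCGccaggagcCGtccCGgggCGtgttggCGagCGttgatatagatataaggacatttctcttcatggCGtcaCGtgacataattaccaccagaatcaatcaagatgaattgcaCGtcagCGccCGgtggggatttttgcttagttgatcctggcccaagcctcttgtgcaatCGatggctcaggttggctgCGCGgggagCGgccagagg

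The HOXD12 window held 19 CG dinucleotides and was 54.3% G or C, against 24 and 74.0% for HOXD13 and 27 and 62.3% for HOXD11. Among the other genes under 1 CPM, the window of HOXD1 had 36 and 74.3%, that of HOXB1 11 and 58.0%, and that of HOXD4 4 and 47.3%. HOXC12 had no matched window. Whether these values go with the transcript level was not tested. Of the 39 genes, 20 were matched to a promoter, with 27 windows, and the median was 22 CG dinucleotides in these 27 and 14 in all 35116 windows of the RefSeq table. HOXB was represented only by HOXB1 and HOXC only by HOXC4 and HOXC5, so the 27 windows are mostly of HOXA and HOXD. HOXB9 and HOXB6 are not among them. 5 motifs were searched on both strands, each without regard to overlap with the others: the TATA box (TATAAA), the CCAAT box (CCAAT), a homeodomain core (TAATTA), a joint site of HOX and PBX (TGATTNAT) and the retinoic acid receptor repeat known as DR5 (a pair of AGGTCA repeats with 5 bases between them). The CCAAT box was in 66.7% of the HOX windows and in 34.6% of all windows, and the TATA box in 18.5% and 11.5%. The joint HOX and PBX site was in 7.41% and 2.82%, and the homeodomain core in 7.41% and 4.84%. DR5 was in none of the 27 HOX windows and in 0.0057% of all windows. The HOXD13 window carried the TATA box and the CCAAT box, that of HOXD12 the CCAAT box, and that of HOXD11 the joint site and the homeodomain core. These matches describe letters only. A window of HOXC4 is shared with HOXC5, and HOXA3 alone has 7 windows, so the 27 are not independent.

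By paralog number, the 16 posterior genes held the largest share of the HOX transcript level. Genes of numbers 9 to 13 took 55.2% ± 1.14 of the summed CPM per kb, the 15 of numbers 4 to 8 took 35.8% ± 0.84, and the 8 of numbers 1 to 3 took 9.02% ± 0.383 (SD, n = 6). Without HOXB9 the shares were 46.1%, 43.0% and 10.8%, and the posterior genes no longer held the majority. The group of number 9 was highest at a summed 114.2 CPM per kb, with HOXB9 giving 62.4% ± 1.86 of it, and the group of number 12 was lowest at 0.128. A single gene gave most of the level in several groups: HOXA5 gave 74.4% in group 5, HOXB7 gave 72.8% in group 7, HOXB2 gave 69.1% in group 2 and HOXD13 gave 67.9% in group 13. HOXC8 gave 56.7% in group 8. The leading gene came from HOXB in groups 2, 3, 4, 6, 7 and 9, with HOXB3 at 45.8%, HOXB4 at 49.8% and HOXB6 at 47.3% of their groups. In group 10 HOXD10 led at 45.0%, and in group 11 HOXA11 led at 40.9%. The leading gene was the same in all 6 libraries in every group but 11 and 12, in each of which it led in 5 of 6.

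**Figure D2:**
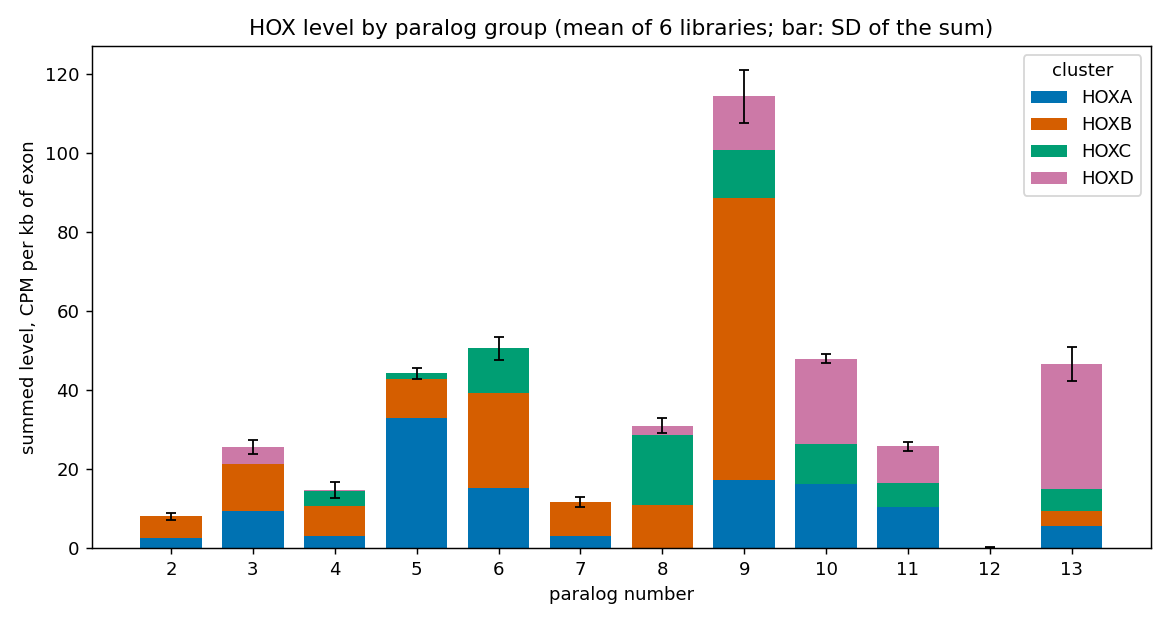
Summed level of paralog groups 2 to 13 in CPM per kb of exon, stacked by cluster, as the mean of the 6 libraries with the SD of the sum. Group 9 is highest at 114.2 CPM per kb, mostly HOXB9, and group 12 is close to 0.

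The comparison of mCherry-targeting with non-targeting libraries asks whether an effector with a crRNA for an mRNA that human cells do not encode goes with a different HOX transcript level. None of the 34 HOX genes tested passed edgeR's quasi-likelihood test at a Benjamini-Hochberg adjusted p under 0.05, where the background was 0.0102% (2 of 19676 genes tested). The smallest adjusted p of a HOX gene in edgeR's quasi-likelihood test with Benjamini-Hochberg adjustment was 0.240. Limma-voom also called 0 of the 34 (background 0.0102%), and DESeq2 0 of the 30 HOX genes to which it gave an adjusted p (background 1.61%). At an unadjusted p under 0.05 edgeR had 4 of 34 HOX genes, limma-voom 4 of 34, where the background was 16.2%, and DESeq2 3 of 39, where it was 7.69%. The 4 of edgeR were 11.8% of the 34, against a background of 16.1% in either direction and 6.09% lower in the mCherry-targeting libraries. All 4 were lower there and all 4 belong to HOXB: HOXB6, HOXB9, HOXB13 and HOXB2. With a correction for GC content edgeR called 0 of the 34 (background 0.00508%), and 0 had an unadjusted p under 0.05 (background 6.76%). Without mCherry-targeting replicate 1 or replicate 2 this count was also 0 of 35 (background 10.3% and 9.76%). It was 1 of 35 without non-targeting replicate 2 (11.8%) and 2 of 35 without non-targeting replicate 3 (9.01%). With library sizes alone it was 2 of 34 (14.7%). Other settings raised it: 5 of 35 without non-targeting replicate 1 (26.7%) and 6 of 39 without a filter on low counts (12.3%). With a term for replicate number it was 5 of 34 (24.2%), and with a term for 7SK share 5 of 34 (18.9%). It was 3 of 35 without mCherry-targeting replicate 3 (14.7%) and 3 of 33 at a mean CPM of at least 5 (20.7%). In bulk RNA, fewer cells that transcribe a gene and less RNA per cell cannot be told apart.

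The HOX fold changes lay within a narrow range. On the log2 scale they ran from -0.33 to 0.10, with standard errors of 0.08 to 0.20. The 95% intervals ran from -0.64 to 0.47 over all 34 genes, so every one lay within a 2-fold difference in either direction, as did those of 83.7% of all genes tested. Within a group, the SD of log2 CPM had a median of 0.14 over the 34 HOX genes and 0.18 over all genes tested. HOXB6 varied least between replicates at 0.02, followed by HOXA5 at 0.03 and HOXB8 at 0.04, while HOXA2, HOXD9 and HOXB4 varied most at 0.26, 0.27 and 0.29.

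**Figure D3:**
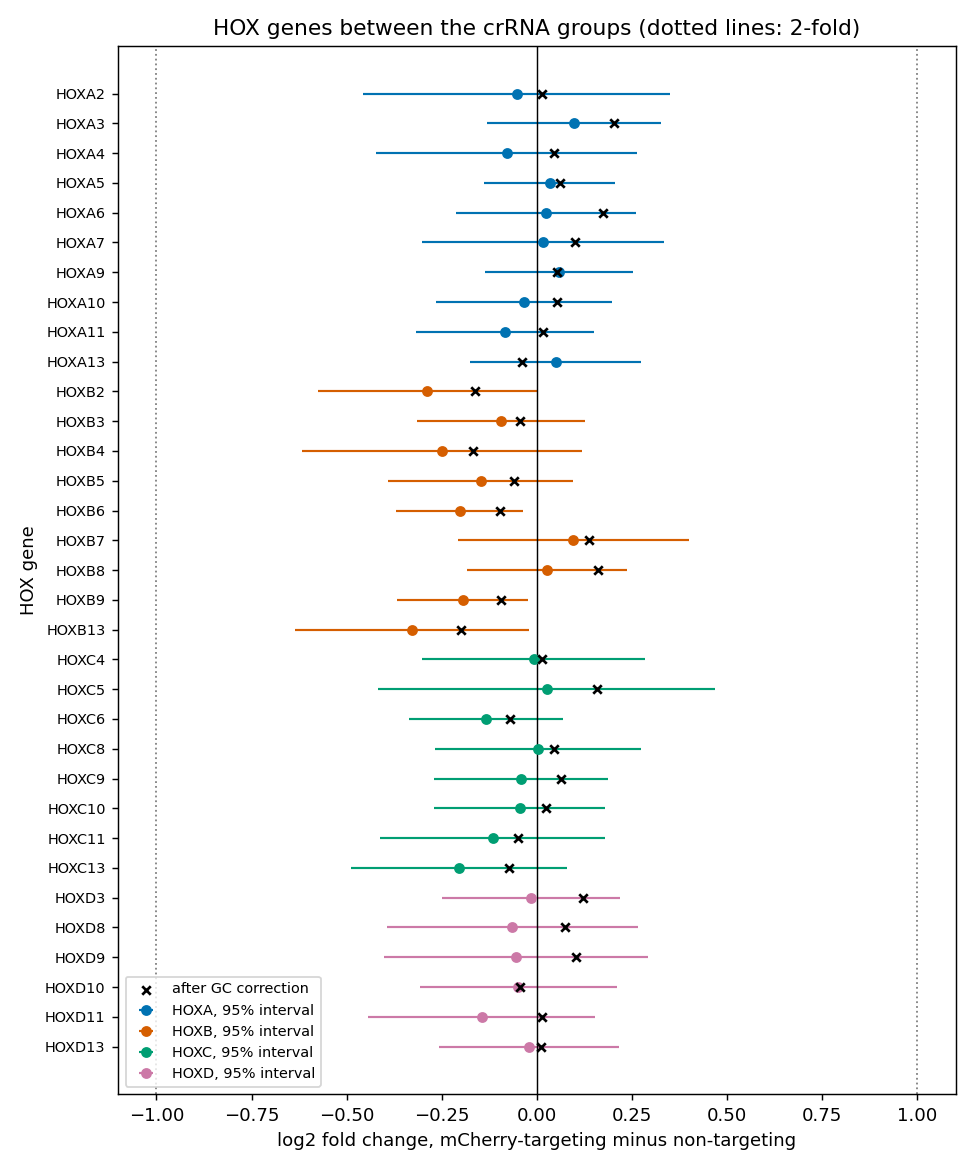
Log2 fold change of mCherry-targeting over non-targeting libraries for the HOX genes tested, with 1 not shown, by cluster, with 95% intervals and the GC-corrected value as a cross. The values run from -0.33 to 0.10, and every interval lies within 1 log2 unit of 0.

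Of the 34 genes, 24 (70.6%) had a fold change below 0, against 50.6% of all genes tested, and the median was -0.05 against -0.0038. By cluster, 7 of 9 HOXB genes, 6 of 8 HOXC genes, 6 of 6 HOXD genes and 5 of 11 HOXA genes were below 0, with medians of -0.20, -0.04, -0.05 and 0.02. HOX transcripts are rich in G and C, with a median of 54.4% against 48.1% for all genes tested. With the GC correction, 13 of the 34 were below 0 and the median was 0.01, against -0.01 for all genes tested. The cluster medians with this correction were -0.09 for HOXB, 0.02 for HOXC, 0.04 for HOXD and 0.05 for HOXA.

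In HOXB9 the groups did not overlap. Its normalised level was 196, 186 and 208 CPM in the non-targeting and 174, 171 and 171 CPM in the mCherry-targeting libraries, means of 197 ± 11.1 and 172 ± 1.6 (SD, n = 3). The log2 fold change was -0.20 ± 0.08 (SE), with an adjusted p of 0.262 in edgeR's quasi-likelihood test with Benjamini-Hochberg adjustment. With the GC correction it was -0.09.

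HOXB6 (ENSG00000108511.8, chromosome 17, 48595751 to 48604992) had the tightest replicates. It had 65.6, 67.6 and 66.8 CPM in the non-targeting and 57.0, 58.0 and 58.8 CPM in the mCherry-targeting libraries. The groups did not overlap, and the log2 fold change was -0.20 ± 0.08 (SE), with an adjusted p of 0.240 in edgeR's quasi-likelihood test with Benjamini-Hochberg adjustment. With the GC correction it was -0.10. Of its exon length, 16.6% is shared with HOXB3 on the same strand and 16.3% with HOXB-AS3 on the opposite strand. HOXB-AS3 stood at 4.86, 4.69 and 5.95 CPM in the non-targeting and 8.86, 5.68 and 5.69 CPM in the mCherry-targeting libraries, and its part in the HOXB6 values was not tested.

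HOXB13, at 12.8, 13.6 and 16.5 CPM against 10.5, 10.6 and 13 CPM, overlapped between the groups and had the most negative fold change of the family, -0.33 ± 0.14 (SE, adjusted p = 0.286, edgeR's quasi-likelihood test with Benjamini-Hochberg adjustment). It was -0.20 with the GC correction and -0.22 without non-targeting replicate 3. HOXB2, at 13.8, 13.4 and 15.8 CPM against 10.2, 12.3 and 12.7 CPM, did not overlap and had a fold change of -0.29 ± 0.13 (SE, adjusted p = 0.309, edgeR's quasi-likelihood test with Benjamini-Hochberg adjustment). With the GC correction it was -0.16. HOXB2, HOXB6 and HOXB9 were the 3 HOX genes (8.82%) whose mCherry-targeting libraries were all below the non-targeting ones, where the background was 9.37%. No HOX gene had the groups apart in the other direction, where the background was 12.6%. HOXB2 was named after its values were seen.

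The HOXB cluster was also apart between the groups as a sum. That sum contains HOXB9, HOXB6 and HOXB2, so its separation is no independent support. It was 164.4, 156.1 and 164.8 CPM per kb in the non-targeting and 144.0, 143.8 and 145.6 in the mCherry-targeting libraries, and the groups did not overlap. Of the difference of -17.3 CPM per kb between the means, HOXB9 made up 55.8% and HOXB6 19.4%, while HOXB7 and HOXB8 had the opposite sign. Without HOXB9 the HOXB sum, which still held HOXB6 and HOXB2, was 88.5, 84.0 and 84.1 against 76.7, 77.6 and 79.3 CPM per kb. The groups were again apart. The sums of the other clusters overlapped between the groups: 120.2 ± 2.82 against 121.3 ± 5.20 CPM per kb for HOXA, 69.3 ± 2.84 against 66.4 ± 3.10 for HOXC and 84.8 ± 3.88 against 82.0 ± 2.45 for HOXD (SD, n = 3). Over all 39 genes the sum was 441.4, 433.7 and 433.2 in the non-targeting and 407.3, 418.8 and 416.5 CPM per kb in the mCherry-targeting libraries. These too did not overlap, but their separation rested on HOXB9. Without that gene the family sums overlapped between the groups. All these sums are without GC correction, and they carry no test. Those with HOXB9 weight it most.

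**Figure D4:**
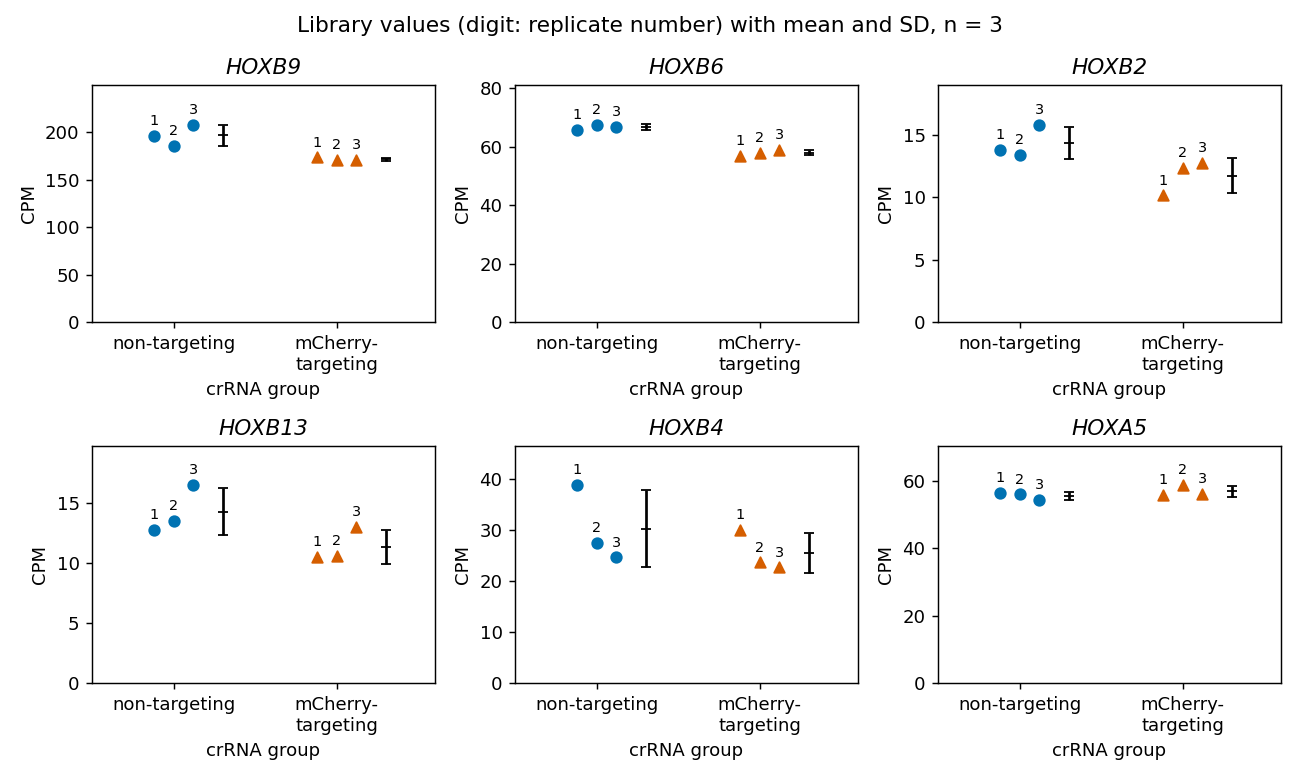
Level of HOXB9, HOXB6, HOXB2, HOXB13, HOXB4 and HOXA5 in CPM in each library, with the mean and SD of each group (n = 3) and axes from 0. The groups are apart for HOXB9, HOXB6 and HOXB2 and overlap for HOXB13, HOXA5 and HOXB4, in which non-targeting replicate 1 is highest at 38.8 CPM.

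HOXB4, also named after its values were seen, followed the libraries more than the groups. It had 38.8, 27.4 and 24.7 CPM in the non-targeting and 30.0, 23.7 and 22.7 CPM in the mCherry-targeting libraries, with replicate 1 highest in both groups. The fold change was -0.25 ± 0.17 (SE, adjusted p = 0.490, edgeR's quasi-likelihood test with Benjamini-Hochberg adjustment). With a term for libraries of low and high 7SK share it was -0.37 with an adjusted p of 0.0369 in edgeR's quasi-likelihood test with Benjamini-Hochberg adjustment, the 1 HOX gene called with that term, where the background was 3.62%. Over all alternatives run, the adjusted p of HOXB4 went from 0.0369 to 0.903 (edgeR's quasi-likelihood test, DESeq2 or limma-voom, with Benjamini-Hochberg adjustment). Without non-targeting replicate 1 it was -0.03, so its value rests on that library.

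The leading genes of the other clusters had fold changes close to 0. HOXA5 had 56.4, 55.9 and 54.3 CPM in the non-targeting and 55.8, 58.7 and 56.1 CPM in the mCherry-targeting libraries, a log2 fold change of 0.03 with a 95% interval from -0.14 to 0.21. HOXD13 had 60.1, 80.2 and 73.7 CPM against 64.4, 71.8 and 74.8, with -0.02 and an interval from -0.26 to 0.22. HOXD10 had 69.7, 57.2 and 50.7 CPM against 62.7, 57.6 and 51.3, with -0.05 and an interval from -0.31 to 0.21. In all 3 genes the groups overlapped. The intervals of HOXC8 (-0.27 to 0.27), HOXC9 (-0.27 to 0.19), HOXC6 (-0.34 to 0.07), HOXA10 (-0.26 to 0.20), HOXB3 (-0.32 to 0.13) and HOXD9 (-0.40 to 0.29) also held 0. The smallest p among the 10 genes above 0 belonged to HOXA3, HOXB7 and HOXA9, at 0.10 ± 0.11, 0.10 ± 0.14 and 0.06 ± 0.09 (SE), with intervals up to 0.33, 0.40 and 0.25. Each of the 3 turned below 0 when 1 library was left out, at -0.0027, -0.03 and -0.0045.

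Partners and regulators of HOX genes were read from the same fit, in 6 lists, and no listed gene passed the test; the median fold change of all genes tested was -0.0038. Of the 11 partners of the PBX, MEIS, PKNOX and TGIF families, 8 were below 0 and the median was -0.07. TGIF2, a repressor of this family with the highest level per kb, had 97.6 ± 9.46 CPM against 92.9 ± 2.64 (SD, n = 3). PKNOX2, a PBX partner, had 39.0, 36.2 and 38.0 CPM against 29.5, 32.5 and 29.8, with the groups apart and a fold change of -0.30 ± 0.09 (SE, adjusted p = 0.202, edgeR's quasi-likelihood test with Benjamini-Hochberg adjustment).

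Of 29 Polycomb genes tested, 15 were below 0 and 14 above, with a median of -0.06. RBBP4, a histone-binding subunit, had 709 ± 24.0 CPM against 726 ± 11.9 (SD, n = 3). PCGF5, a subunit of a variant Polycomb complex, had 40.5, 34.3 and 32.1 CPM in the non-targeting and 48.4, 45.4 and 50.8 CPM in the mCherry-targeting libraries, with the groups apart. Its fold change was 0.44 ± 0.10 (SE, adjusted p = 0.193, edgeR's quasi-likelihood test with Benjamini-Hochberg adjustment), and 0.16 with the GC correction. Of 16 MLL and Trithorax genes, 9 were below 0, with a median of -0.03. WDR5, a core subunit of the MLL complexes, had 120 ± 7.90 CPM against 114 ± 3.58, and PSIP1, which tethers MLL to chromatin, had 98.0 ± 9.01 against 124 ± 2.46, a fold change of 0.33 ± 0.08 (SE) that was 0.17 with the GC correction.

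Of 9 genes of chromatin insulation, which sets the borders between active and silent HOX genes, 7 were above 0 and the median was 0.16. SMC3, a cohesin subunit, had 114, 98.3 and 82.8 CPM against 129, 130 and 126, a fold change of 0.38 ± 0.11 (SE) that was 0.18 with the GC correction. MAZ, an insulator protein, had 630 ± 85.3 against 553 ± 39.3 CPM. Of 16 retinoic acid and CDX genes tested, 12 were below 0 and the median was -0.09. CRABP2, a carrier of retinoic acid, had 74.6 ± 14 against 66.7 ± 12.6 CPM, and the receptor RARA had 25.3 ± 1.99 against 21.1 ± 1.5 CPM, a fold change of -0.26 ± 0.11 (SE) that was -0.10 with the GC correction.

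Of 20 tested non-coding transcripts and neighbours of the clusters, 15 were below 0 and the median was -0.11. HOTTIP, the non-coding RNA beside HOXA13, had 1.82, 1.85 and 1.86 CPM in the non-targeting and 1.5, 1.15 and 1.06 CPM in the mCherry-targeting libraries, a fold change of -0.58 ± 0.24 (SE, adjusted p = 0.276, edgeR's quasi-likelihood test with Benjamini-Hochberg adjustment). HOXA13 itself overlapped between the groups, at 28.7 ± 0.987 against 29.7 ± 3.14 CPM (SD, n = 3). HOTAIR, the non-coding RNA of the HOXC cluster, had 11.6 ± 0.548 against 12.2 ± 2.28 CPM. HNRNPA1, an RNA-binding protein gene next to HOXC, had 832 ± 76.7 against 898 ± 93.1 CPM. HOXB-AS3 and HOTAIR were named after their values were seen.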

How the data were processed

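RNA of 6 HEK293T libraries was poly(A)-enriched, dUTP strand-marked and primed at random, per the labels' protocols. The values the authors deposited are unnormalized read counts for each gene. The submitters' processing notes name cutadapt 4.4, STAR 2.7.4a and hg19 (GRCh37). The sources used here do not give the counting tool, its strand setting or the annotation, and genes that share exons or lie antisense are uncertain.

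Identifiers were matched without version to GENCODE 29 on GRCh38 for symbols, exon length, GC content and overlaps. CPM was computed from the deposited counts with TMM scaling in edgeR 4.0.16 (R 4.3.3). After filterByExpr, 19676 genes were tested by the quasi-likelihood F test with group as the only term, and p-values were adjusted by Benjamini-Hochberg over all of them. GC content was corrected by loess offsets (span 0.5). The library set term marks a 7SK share above 1%. DESeq2 1.42.0 and limma-voom 3.58.1 were alternatives.

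1 member is not reported here by name. Members and lists were chosen with earlier results of these data known. Named are the 3 genes with the highest level in each cluster, the 3 with the smallest p in each direction, any gene called, any gene at 0 in all 6 libraries, and in each list the highest and the smallest p.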

Additional observations from a re-analysis of the deposited data

How the results depend on the processing

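Whether the replicate numbers pair the libraries could not be told. Deviations from the group mean correlated at 0.23, 0.04 and 0.33 between same-numbered libraries, and at -0.33 to 0.12 between the others. Non-targeting replicate 2 correlated at 0.043 with its own number and at 0.045 with mCherry-targeting replicate 3. The highest value of mCherry-targeting replicate 2 was with non-targeting replicate 1, at 0.12. With the replicate block 1209 genes were called and 0 HOX genes. Against 2 genes called in the design with group alone, the count was 1 with library sizes alone, 1 with a mean CPM of at least 5, 1 with the GC correction, 6 with the block and GC correction together, 184 with DESeq2, 597 with no filter and 712 with the library set term. Leaving out 1 library gave 1 to 1806 genes, the highest without non-targeting replicate 1. The HOX count stayed at 0 in all of these except the library set term, with 1, HOXB4. The HOX median log2 fold change was 0.015 with the GC correction, 0.023 with block and GC correction, and -0.073 to -0.0045 without 1 library, the latter without non-targeting replicate 1. The cause was not tested.

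Shares of the summed level moved with raw counts to 39.7% for HOXB, 14.6% for HOXC and 17.6% for HOXD. With the longest transcript HOXC had 15.4%. Without genes that overlap on the same strand they were 23.7% for HOXA, 43.8% for HOXB, 11.6% for HOXC and 20.9% for HOXD, from fewer genes. Without HOXB9, an alternative chosen after seeing the data, they were 34.2%, 23.1%, 19.2% and 23.6%, and those of the anterior, central and posterior genes were 10.8%, 43.0% and 46.1%.

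Signs turned for genes close to 0. With the GC correction, alone and with the block, HOXA10 was at 0.052 and 0.055, HOXC9 at 0.063 and 0.063, HOXD13 at 0.012 and 0.018, HOXD9 at 0.10 and 0.11, RBBP4 at -0.11 and -0.11, and WDR5 at 0.028 and 0.028. With the library set term HOXA10 was at 0.054, HOXD13 at 0.068 and HOXC8 at -0.061. HOXC8 was also at -0.00066 with DESeq2-type factors, -0.018 with upper-quartile factors, -0.0052 with no filter and -0.0031 with DESeq2. Without 1 library, ranges crossed 0 for HOXA9 (-0.0045 to 0.12), HOXA10 (-0.13 to 0.034), HOXB3 (-0.18 to 0.0092), HOXC8 (-0.11 to 0.15), HOXD13 (-0.13 to 0.071), HOXD10 (-0.15 to 0.084), HOXD9 (-0.20 to 0.11), HOXA3 (-0.0027 to 0.15) and HOXB7 (-0.025 to 0.19). Calls were gained by PCGF5, PSIP1 and SMC3 with no filter, the block, the library set term and without non-targeting replicate 1, by PCGF5 with DESeq2 and by PKNOX2 with the library set term. With the GC correction PCGF5, PSIP1 and SMC3 were at 0.16, 0.17 and 0.18 with adjusted p of 0.740, 0.718 and 0.716, and with block and GC correction the adjusted p were 0.386, 0.299 and 0.287 (edgeR's quasi-likelihood test), so the calls of the block alone were lost. HOXB6, HOXB9, HOXB13 and HOXB2, picked for their values in these data, kept their sign in every alternative run. The alternatives reuse the same libraries, so a kept sign is no separate support. With the GC correction alone these genes were at -0.10, -0.09, -0.20 and -0.16. Depth limits the 5 genes under 1 CPM.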
